A study of Caenorhabditis elegans with 3 samples.

Results

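Sequence-name genes are genes of the nematode Caenorhabditis elegans that are still called by their place on a sequenced clone, a clone name followed by a dot and a number, such as C32F10.4. Genes of this species usually receive a name of letters, a hyphen and a number once a mutant, a protein family or a function has been described, so a sequence name marks a gene for which that step was not recorded in the gene table used here. The genes described here are those sequence-name genes whose signal was at least 2-fold higher at 24 h of exposure to multiwall carbon nanotubes than at 0 h. They number 154 of 2811 sequence-name genes measured and of 8634 genes measured in all, and a further 3907 sequence-name genes on the array were too dim to be measured. The gene tables give these 154 genes a sequence name and a biotype, 150 as protein coding, 3 as pseudogenes and 1 as a non-coding RNA, and no function is given to them here.

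The worms were wild-type N2 hermaphrodites at the young adult stage, grown on agar with Escherichia coli OP50 and synchronised by bleaching gravid adults. Multiwall carbon nanotubes are hollow fibres made of nested rolled carbon sheets, and they were given at 1 mg/L in K-medium, a salt solution. Total RNA of whole animals was put on 3 arrays, 1 from worms with no treatment at 0 h, 1 after 4 h and 1 after 24 h with nanotubes. Arrays of unexposed worms from the later times were not analysed here, so nanotubes, time in the salt solution and the age of the worms cannot be told apart.

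Whole-animal RNA mixes all tissues and the embryos held in the uterus. Fewer cells of a type and less RNA per cell cannot be told apart in such samples. Young adult hermaphrodites no longer make sperm, make oocytes instead and hold a growing number of embryos. Signals of a sequence-name gene in these arrays can therefore stem from any tissue of the mother or from her embryos.

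All values are the authors' normalized intensities of 1 probe set per gene, the brightest. Differences are of log2(intensity + 32), which understates the change of dim genes, and "2-fold" means a difference of 1 or more on this scale. With 1 array per time no test across replicates exists. As a measure of error within the arrays, the differences of separate probe sets for 1 gene had an SD of 0.47 for 24 h minus 0 h, 0.24 for 4 h minus 0 h and 0.29 for 24 h minus 4 h, over 1830 genes. This SD leaves out the spread between cultures, extractions and hybridisations. The brightest control for absent transcripts, an intensity of 67.8, was taken as the background floor.

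The 24 h difference chose these genes, so its size is a description and no finding. The 154 genes make up 5.48% of the sequence-name genes measured, beside 5.32% of all genes measured and 5.24% of the genes with other names. Lower by 2-fold or more at 24 h were 246 sequence-name genes, or 8.75%, beside 7.96% of all genes measured. With the brightness filter at the 75th percentile, 78 sequence-name genes were higher and 72 lower. The differences of the 154 genes ran from 1.00 to 4.09 with a median of 1.36. Of the 154 genes, 22 reached a log2 difference of 2 or more and 5 reached 3 or more, while 89 lay under 1.5. A margin of 3 SDs between probe sets (1.40) was reached by 74 genes, and 87 lay within 1 SD of the threshold.

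At the threshold itself, C27F2.4 was just inside with intensities of 268 at 0 h, 453 at 4 h and 569.5 at 24 h (log2 difference 1.00 at 24 h). The other genes nearest inside were F46B6.12 (1.01), K08E7.5 (1.01), F47E1.4 (1.01) and C25H3.7 (1.01). Just outside lay T08B1.4, with intensities of 95.9, 146 and 224 and a 24 h difference of 0.999. F26A3.4 (0.998), C23F12.4 (0.994), Y9C2UA.1 (0.991) and F58A4.2 (0.991) followed. The 24 h differences of these 10 genes lie within the SD between probe sets of each other.

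The largest 24 h difference was that of Y110A2AL.4. Its probe set read 93.8, then 338 and then 2108 in the order of time, a log2 difference of 4.09. It was higher at each later time, and the larger of its steps lay between 4 h and 24 h (2.53). Its probe set carries the manufacturer's _s_ mark, which means that it can also hybridise with related transcripts. A dimmer probe set for Y110A2AL.4 without that mark read 28.2 at 0 h and 314 at 24 h, so both lay on the same side.

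C32F10.4 was also higher at each later time. It read 316 at 0 h, 1184 at 4 h and 4711 at 24 h (log2 difference 3.77 at 24 h). F43C11.7 read 233, 1481 and 2895 (3.46 at 24 h), with most of its difference already present at 4 h (2.51). For these genes every later array was above the earlier one by more than the SD between probe sets.

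Y97E10AR.1 and C54C8.12 lay under the floor at 0 h. Y97E10AR.1 read 53.4, 122 and 855, which makes it at least 8.89-fold higher at 24 h than the floor. C54C8.12 read 46.1, 49.6 and 674, under the floor at both earlier times and at least 7.07-fold higher at 24 h. Its signal was thus seen above the floor at 24 h and in neither earlier array, and it passed the brightness filter through the 24 h array.

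F53A9.8 was far over the floor in all arrays, with intensities of 2085, 7175 and 14390 (log2 difference 2.77 at 24 h). The non-coding RNA gene Y53F4B.45 read 559, 1193 and 3853 (2.72). A dimmer probe set for Y53F4B.45 stayed at 38.7 at 0 h and 24 h, under the floor, and so gave no second reading.

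T14B1.1, F13E9.11, Y43C5A.3 and K10D3.4 came next. T14B1.1 read 348, 494 and 2303 (log2 difference 2.62 at 24 h), and F13E9.11 read 280.5, 824 and 1793 (2.55). Y43C5A.3 read 384, 641 and 2186 (2.41), and K10D3.4 read 160.3, 302 and 982 (2.40). T14B1.1 differed from 0 h by 0.47 at 4 h, short of 2-fold, whereas F13E9.11 was already 2-fold higher at 4 h.

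The last genes of the highest 15 were W04A8.4, T05E12.3, ZC395.5 and Y6E2A.4. W04A8.4 read 102, 317 and 653 (log2 difference 2.35 at 24 h). T05E12.3 read 106, 595 and 659.8 (2.32), and ZC395.5 read 532, 3435 and 2653 (2.25). Y6E2A.4 read 36.5, 377 and 293, at least 3.26-fold above the floor at 24 h. The last 2 genes were higher at 4 h than at 24 h, unlike the other 13.

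**Figure D1:**
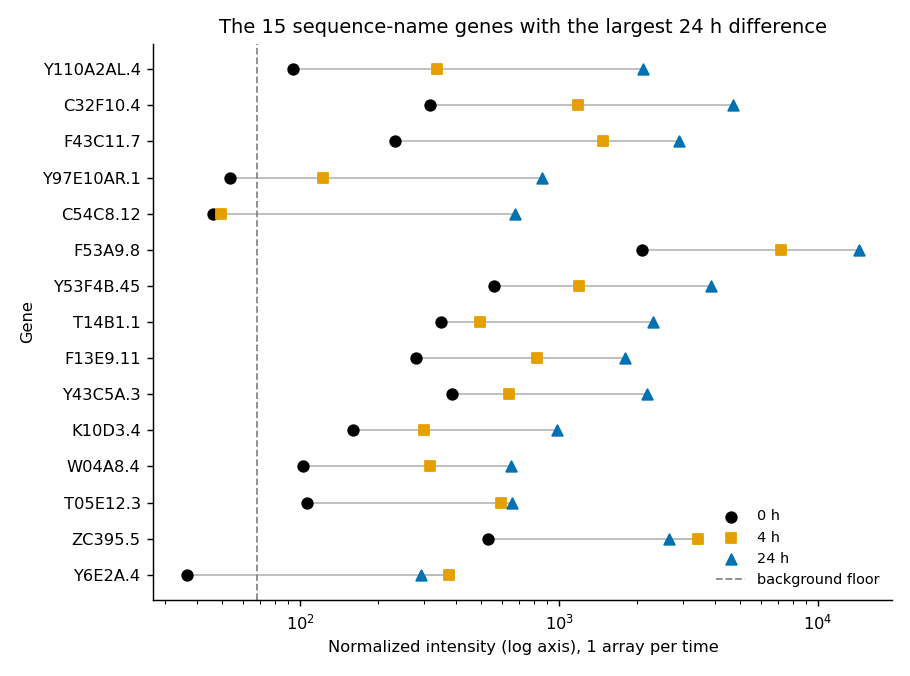
Normalized intensity (log axis) at 0 h (circles), 4 h (squares) and 24 h (triangles) of the 15 sequence-name genes with the largest 24 h difference, 1 array per time, with the background floor of 67.8 as a dashed line. In 13 of the 15 genes the 24 h value is the highest, while ZC395.5 and Y6E2A.4 are highest at 4 h.

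The 4 h array entered the brightness filter but not the 24 h threshold. Its difference from 0 h shares the 0 h array with that threshold, so a low reading at 0 h raises both. The steps before and after 4 h add up to the 24 h difference that chose the genes. A fall in 1 step therefore needs a larger rise in the other. At 4 h, 42 of the 154 genes were higher than at 0 h by 2-fold or more and 1 was lower. In that comparison 1.71% of all genes were higher and 3.25% lower, and 2.24% and 3.45% of the sequence-name genes measured. The median 4 h difference of the 154 genes was 0.73, beside 0.00 over all genes measured. It was above 0 in 147 genes (95.5%), beside 45.1% of all genes measured, and larger than the SD between probe sets in 136. Some genes are listed at the same value in more than 1 array, such as egg-1 at 3681 in all arrays. Such equal values count as not above 0, so the genes outside the 45.1% were not all lower. The median share of the 24 h log2 difference that was present at 4 h was 50.2%. Choosing genes by the outer arrays by itself tends to place the middle array between them, so this share is a description.

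Between 4 h and 24 h the genes differed by as much again. Of the 154 genes, 42 were higher at 24 h than at 4 h by 2-fold or more and 0 were lower, beside 2.28% higher and 3.22% lower over all genes and 2.7% and 3.88% over the sequence-name genes measured. This comparison shares the 24 h array with the rule, which by itself limits falls and favours the order 0 h, 4 h, 24 h. The median 24 h minus 4 h difference was 0.73, and it was above 0 in 140 genes (90.9%), beside 38.4% of all genes measured. Equal values again count as not above 0. Intensities followed the order 0 h, 4 h, 24 h in 133 genes, 13 genes were highest at 4 h and 7 were lowest at 4 h.

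The 305 genes with other names that were higher at 24 h had a median 24 h difference of 1.26 and a median 4 h difference of 0.62. Of them, 62 (20.3%) were 2-fold higher at 4 h, beside 27.3% of the sequence-name genes. Whether these shares differ was not tested.

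By the step that held the difference, 42 genes were early (2-fold or more at 4 h), 36 were late (under 2-fold at 4 h, 2-fold or more from 4 h to 24 h) and 76 were gradual (under 2-fold in each step). These classes are ranges and not types. The 4 h difference of 40 genes and the 24 h minus 4 h difference of 60 genes lay within 1 SD between probe sets of the line that separates the classes.

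**Figure D2:**
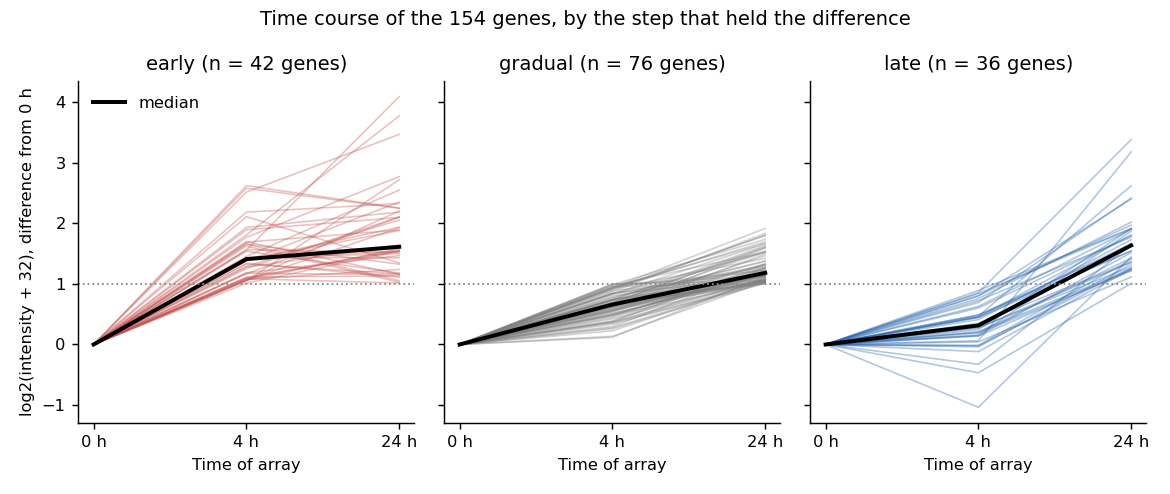
Difference from 0 h in log2(intensity + 32) at 4 h and 24 h for each of the 154 genes (thin lines), in the 42 early, 76 gradual and 36 late genes, with the median of each class in black and the 2-fold threshold dotted. The early median is 1.41 at 4 h and 1.61 at 24 h, the gradual median 0.66 and 1.18, and the late median 0.31 and 1.63.

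The early genes had a median 4 h difference of 1.41 and a median 24 h minus 4 h difference of 0.23. In 23 of the 42 the 4 h and 24 h values were within 0.5 of each other. The early genes thus include courses that stayed level after 4 h, some that went on upward and some that came back in part. Of the 42, 28 were higher at 24 h than at 4 h, 13 were lower and W10G11.2 was listed at the same value, 289, in both arrays.

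Early genes that stayed near their 4 h level included ZC443.3 and C08F11.13. ZC443.3 read 524 at 0 h, 2087 at 4 h and 2495 at 24 h (log2 differences from 0 h 1.93 and 2.18). C08F11.13 read 297, 1190 and 1373 (1.89 and 2.09). For both genes a second probe set was also 2-fold higher at 4 h, but it went on upward. That of ZC443.3 differed from 0 h by 1.97 at 4 h and 2.54 at 24 h, and that of C08F11.13 by 1.66 and 2.15. These later steps of 0.57 and 0.50 are larger than the SD between probe sets.

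Early genes with a lower value at 24 h than at 4 h were led by F15E6.3. It read 307 at 0 h, 1429 at 4 h and 829.8 at 24 h, so the 24 h minus 4 h difference was -0.76. T20B3.1 read 98.7, 379 and 239 (-0.60), and M04D5.3 read 244, 818 and 531 (-0.59). C18A11.1 read 289, 1005 and 684 (-0.53). These genes were highest at 4 h and still at least 2-fold above 0 h at 24 h, and in 8 of the 13 genes with a peak at 4 h the drop was larger than the SD between probe sets.

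Early genes that gained another 2-fold or more after 4 h numbered 6. They were Y110A2AL.4, C32F10.4, F53A9.8, Y53F4B.45 and F13E9.11, described above, and F30A10.9. F30A10.9 read 895 at 0 h, 1904 at 4 h and 4230 at 24 h, with differences of 1.06 in the early step and 1.14 in the later one. Of these 6 genes, F13E9.11 alone was measured by a probe set without the _s_ mark.

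The late genes had a median difference of 0.31 at 4 h and 1.27 from 4 h to 24 h. C54C8.12, Y97E10AR.1, T14B1.1 and Y43C5A.3 held the largest late steps together with 2 genes that were lower at 4 h than at 0 h. R02F11.1 read 332, 146 and 959. Its 4 h difference of -1.03 was the one past 2-fold on the lower side. Its _s_ probe set was its representative, and without such probe sets no member was lower at 4 h by 2-fold. C14A4.9 read 91.5, 66.5 and 354, and its 4 h value was under the floor.

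Of the other genes with a 4 h value under that of 0 h, K08E7.5 read 105, 67.3 and 244 (4 h difference -0.47), again with the 4 h value under the floor. W08E12.6 read 78.8, 70.2 and 230.3 (4 h difference -0.12), and R07E3.1 read 474, 461 and 1235 (-0.04). M60.7 and T10B5.7 differed by -0.01 and -0.02. For these 4 genes the 4 h difference is within the SD between probe sets, and for K08E7.5 it is not.

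The gradual genes made up 49.4% of the 154. Their median difference was 0.66 at 4 h and 0.65 from 4 h to 24 h. The largest 24 h difference among them was that of Y22D7AL.15, which read 614, 1203 and 2403 (1.91), close to 2-fold in each step. C53B7.3 read 3202, 5528 and 8016 (1.32), and M60.4 read 2217, 4214 and 5984 (1.42), far over the floor in all arrays. So was the late gene F56H9.2, at 3031, 5331 and 11962 (1.97), whose probe set carries the _x_ mark for possible cross-hybridisation.

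**Figure D3:**
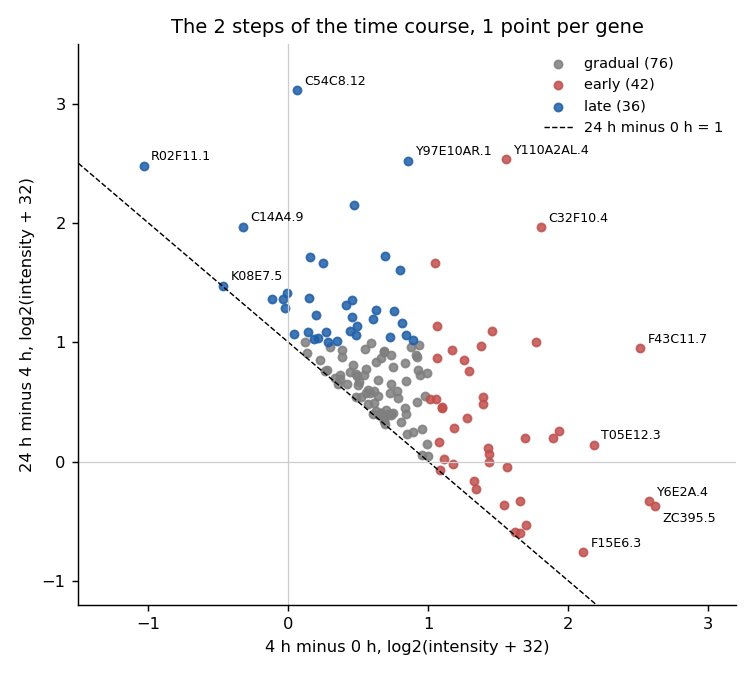
The 4 h minus 0 h difference (horizontal) against the 24 h minus 4 h difference (vertical) in log2(intensity + 32), 1 point per gene, coloured by class, for all 154 genes. The dashed line is the 24 h threshold that chose the genes, so no point can lie under it, and both axes share the 4 h array. F15E6.3, ZC395.5 and Y6E2A.4 lie at the early end, and C54C8.12 and R02F11.1 at the late end.

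Signals under the floor were found for 12 of the 154 genes at 0 h, for 3 at 4 h and for 0 at 24 h. The brightness filter used the mean of all 3 arrays, so the 12 genes passed it through their later arrays. The count of 0 at 24 h follows largely from this filter and the 24 h threshold. When each value under the floor was replaced by it, the 24 h median was 1.35 and the 4 h median 0.71, and 152 genes were still past 2-fold at 24 h. The exceptions were F38E9.1, at least 1.89-fold higher with intensities of 54.1, 154 and 157, and F47E1.4, at least 1.92-fold higher with 63.3, 152 and 159.9. D1086.2 was at least 3.84-fold higher at 24 h, with 60.3, 194 and 351. ZK287.1 was at least 3.48-fold and F40E3.5 at least 3.17-fold higher. Among the dim sequence-name genes left out, 24 had a difference of 1 or more at 24 h, and all 24 lay under the floor at 0 h.

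Other probe sets of the same genes were not used by the rule, though they share its RNA and arrays. Of the 154 genes, 40 had 43 other probe sets. Of these, 18 differed by 1 or more at 24 h, 39 were above 0, 1 was below 0 and 3 were listed at the same value. Over all genes measured, by their brightest probe set, 5.32% differed by 1 or more and 44.8% were above 0, with equal values counted as not above 0. Among the 22 that passed the brightness filter, 11 differed by 1 or more and the median was 0.95. Among the 21 that did not pass it, 7 did so and the median was 0.41. Without probe sets marked _x_ or _s_, 14 of 35 differed by 1 or more.

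F01G4.6 was the gene whose probe sets went opposite ways. The _s_ probe set that represents it read 3376 at 0 h, 5790 at 4 h and 8760 at 24 h (log2 difference 1.37). The other probe set, without that mark, read 5314 before exposure and 4636 at 24 h (-0.20), with both signals far over the floor. The 24 h difference of F01G4.6 therefore depends on which probe set is read.

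Several genes were higher at 24 h in both probe sets. C41G11.1 differed by 1.59 in its main probe set and by 2.02 in the other, and C53B7.3 by 1.32 and 1.72. F36F2.2 differed by 1.73 and 1.75. T14B1.1 had differences of 0.76 and 0.91 in its other probe sets against 2.62 in the one used, so its 2-fold call rests on 1 probe set of 3. W07E11.1 (1.16 against 0.15), Y43E12A.2 (1.13 against 0.27) and F53F4.11 (1.63 against 0.25) likewise had a second probe set short of 2-fold. These second probe sets passed the brightness filter. That of W07E11.1 read 124 at 0 h and 141 at 24 h, and that of Y43E12A.2 read 88.3 and 113. The one for F53F4.11, marked _x_, was brighter, at 501 and 603.

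**Figure D4:**
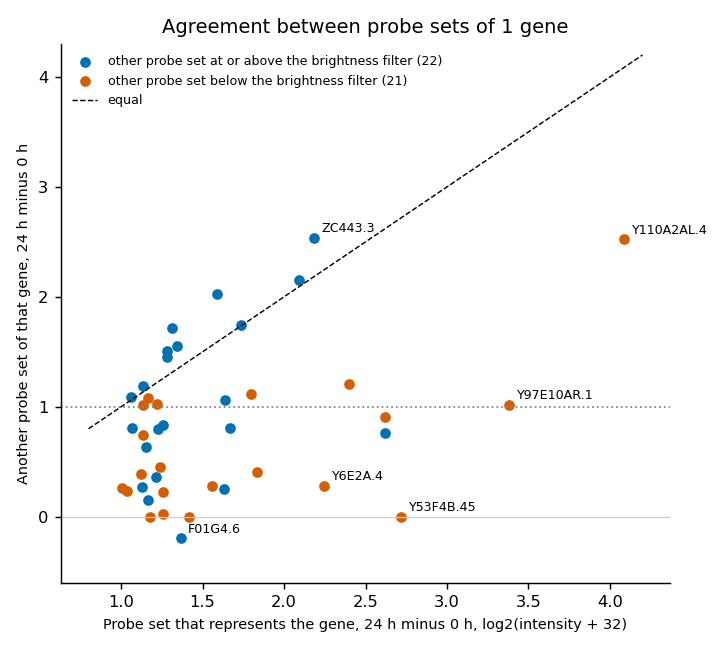
The 24 h minus 0 h difference in log2(intensity + 32) of the probe set that represents a gene (horizontal) against that of another probe set of the same gene (vertical), for 43 other probe sets of 40 genes, 22 at or above the brightness filter and 21 below it. The dashed line marks equal values and the dotted line the 2-fold threshold. Of the 43, 18 reach the threshold, and F01G4.6 is below 0.

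Probe sets open to cross-hybridisation represented 44 of the 154 genes (28.6%), 43 marked _s_ and 1 marked _x_. Among all sequence-name genes measured it was 941, or 33.5%. Over all genes with more than 1 passing probe set, the brighter had lower 24 h differences than the dimmer by a mean of 0.35 on the log2 scale. For 4 of 4 worm control transcripts the ratio of 5' to 3' signal was higher at 24 h than at 0 h, by a median of 0.56. At 4 h this ratio was also higher for 4 of 4, by a median of 0.32. The part of probe position and RNA quality in the differences of the 154 genes was not tested.

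All directions are relative to the other genes of an array. The 9 probe sets for bacterial and phage hybridisation controls were lower at 24 h than at 0 h by a mean log2 difference of -0.66. At 4 h their mean difference was -0.45. Scaled on these controls, the median of all genes was 0.43 at 4 h and 0.61 at 24 h. At 24 h, 611 sequence-name genes were then 2-fold higher and 116 lower. That is 84.0% higher among the calls of sequence-name genes, against 38.5% as deposited. Over all genes the share was 85.6% against 40.1%. All of the 154 genes were among the 611. This overlap follows from the scaling, which raised every 24 h intensity and left those at 0 h unchanged, so it is no check of the 154 genes.

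The 3 pseudogenes had the same direction in each step. F07H5.5 read 1982 at 0 h, 3572 at 4 h and 5733 at 24 h (log2 difference 1.52 at 24 h). W03D2.6 read 111, 177 and 369 (1.49), and C33D9.5 read 81.2, 171 and 235 (1.24). All of them were gradual. Pseudogenes made up 53 of the 2811 sequence-name genes measured.

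Position was not used by the rule. In the order of protein-coding genes of the WBcel235 assembly, used here for names and neighbours only, 150 of the genes were placed and 1 pair lay side by side. That pair was C33A12.4, with 155, 242 and 437, and C33A12.3, with 162, 288 and 389.6. Both were gradual, with 24 h differences of 1.33 and 1.12. Allowing steps of up to 5 genes gave 6 pairs, with Y54G2A.10 and Y54G2A.11, T10B5.3 and T10B5.7, D1086.2 and D1086.5, M60.4 and M60.7, and F53A9.8 and F53A9.1 beside the first. No run was longer than 2 genes.

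Genes of a pair did not always share a course. D1086.2 went on upward after 4 h (194 and 351), while D1086.5 was higher at 4 h than at 24 h (626 and 490.2). M60.4 was higher already at 4 h (4214 against 2217), while M60.7 was not (132 against 134) and read 405 at 24 h. Y54G2A.10 read 269, 537 and 1014, while Y54G2A.11 was level after 4 h (786, 1602 and 1658). F53A9.8 was early (4 h difference 1.77) and F53A9.1 gradual (0.46), and T10B5.3 was gradual (0.66) and T10B5.7 late (-0.02).

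Of the direct neighbours that are not among the 154 genes, 140 were measured. Of these, 5 (3.57%) were 2-fold higher at 24 h and 8 lower, with a median of 0.00, beside 5.32% higher and 7.96% lower over all genes measured. Neither the higher nor the lower neighbours exceeded the share over all genes. The 5 higher ones all have names. They include far-7, of the nematode fatty acid and retinol binding protein family, beside K01A2.10. It read 199 at 0 h, 877 at 4 h and 1426 at 24 h (log2 difference 2.66), while K01A2.10 read 155, 255 and 371 (1.10). Another is atp-3, which encodes an ATP synthase subunit, beside F27C1.2 (1.15 and 1.88), and a further one is nduv-2, for a subunit of respiratory complex I, beside F53F4.11 (1.05 and 1.63). The second probe set of F53F4.11 differed by 0.25 at 24 h.

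Of the 8 lower neighbours, some differed strongly and are given as examples only. On its other side F27C1.2 has dpy-5, a cuticle collagen gene, which read 1209, 477 and 115 (-3.08), while F27C1.2 read 812, 2184 and 3072. F21C10.10 read 1561, 4674 and 4533, and its neighbour F21C10.9 read 964, 120 and 66.4, the last under the floor. F53F10.1 (24 h difference 1.35) lies beside gsp-4, a phosphatase gene of sperm, at -1.97. These 3 genes each had 1 neighbour that was lower at 24 h, while the one on the other side was not: atp-3 beside F27C1.2 (1.15), azin-1 beside F53F10.1 (1.15) and T27E4.1 beside F21C10.10 (0.20).

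Named genes of 7 lists, chosen with earlier results of these data known, give the setting on the same arrays. Genes too dim to be measured are left out of the counts. Over all genes measured, 5.32% were 2-fold higher and 7.96% lower at 24 h, and 1.71% higher and 3.25% lower at 4 h. In the list for low insulin signalling, genes that follow the transcription factor DAF-16 or are tied to long life and stress resistance, 7 of 10 genes reached 2-fold at 24 h and 7 at 4 h, all on the higher side, with medians of 1.52 and 1.87. Examples are hil-1, a linker histone gene, with 214, 936 and 1804 (log2 difference 2.90 at 24 h) and hsp-12.6, which encodes a small heat shock protein, with 76.4, 274 and 1675 (3.98). Of the 11 genes listed, sod-3 was too dim to be measured and read 98.6, 61.2 and 73.6, lower at both later times. The measured gene sip-1 was listed at the same value in all arrays. Among the 154 genes the 4 h median was smaller, at 0.73, and the 24 h median was 1.36.

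Among 14 moulting genes, 5 were 2-fold higher and 1 was lower at 24 h, with a median of 0.84. They act in the building and shedding of the cuticle, and the matrix gene noah-1 read 450.0, 1344 and 2199 (2.21). Of 10 neuron genes, 5 were higher at 24 h and 0 at 4 h (median 1.10 and 0.32), among them the neuropeptide gene flp-10, with 120, 257 and 493 (1.79). Of 13 embryo genes, 4 were higher at 24 h and 0 lower (median 0.24), including the hatching enzyme gene hch-1, with 99.7, 326 and 592 (2.24).

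Lists without higher members at 24 h were the 10 intestine genes, with 3 lower, and the 9 oocyte and maternal genes, with 2 lower. Of 9 innate immune genes, 3 were higher and 5 lower (median -1.33), with spp-8, a saposin-like gene, at 701, 1094 and 3731 and irg-8 at 3214, 806 and 195. No list of other genes was chosen from the 154, and the counts do not link any of the 154 genes to a list.

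**Figure D5:**
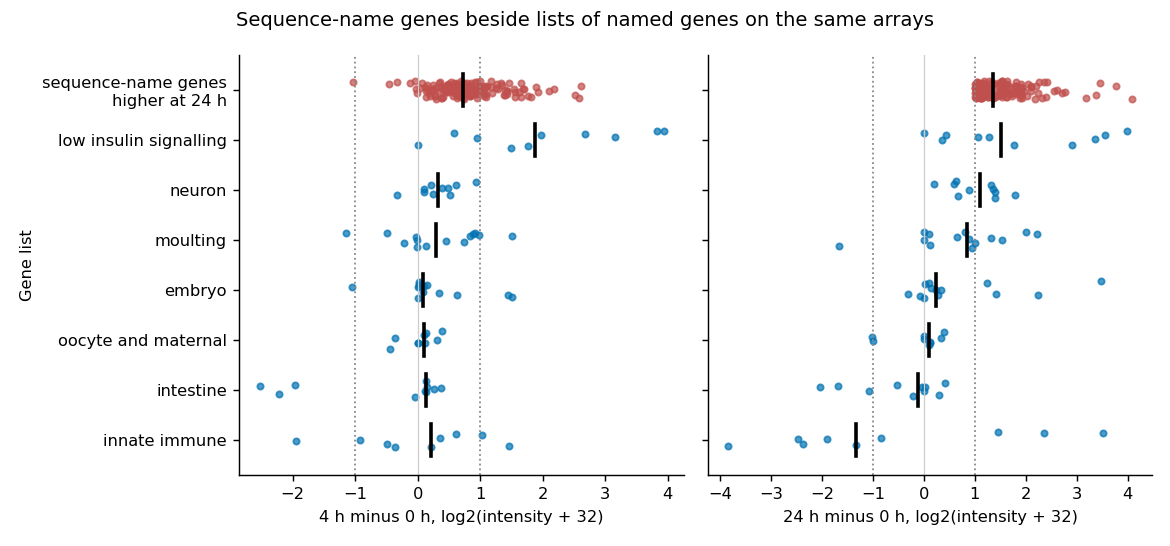
The 4 h minus 0 h (left) and 24 h minus 0 h (right) differences in log2(intensity + 32) of the 154 sequence-name genes (red) and of the measured genes of 7 lists of named genes (blue), 1 point per gene, with medians as black bars and 2-fold as dotted lines. The 154 genes start at 1.00 on the right because the rule chose them there. Their median of 0.73 on the left lies above those of all lists except low insulin signalling. The left panel shares the 0 h array with the rule, which raises that median, so its rank among the lists is no independent result.

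Tissue markers were checked because the 154 genes could stem from any tissue. Markers of 8 tissues or cell types were all above the floor at 0 h and at 24 h, except ceh-22, a gene of the forming pharynx on the embryo list, at 0 h and the epidermal collagen gene bli-1 at 24 h. In the order 0 h, 4 h and 24 h, the 3 embryo markers summed to intensities of 278, 566 and 929, and the 4 sperm markers to 10620, 6505 and 1075. The 4 neuron markers summed to 4307, 4710 and 6883, and the 3 oocyte markers to 5502, 6286 and 6386. For body wall muscle (3 markers) the sum was 15248, 14108 and 13088, for the pharynx (3) it was 3594, 3478 and 4595, for the intestine (4) it was 29982, 29653 and 28873, and for the epidermis (4) it was 6302, 6692 and 4823. These sums follow their brightest genes, and single markers differed. By 2-fold at 24 h, 2 of the 3 embryo markers were higher, while end-3 was near its 0 h level (0.27). Of the epidermis markers dpy-7 was higher (1.00) and bli-1 lower (-1.66), while rol-6 was just short of 2-fold lower (-0.99). Of the intestine markers act-5 alone was lower (-1.69). On the list of 10 intestine genes, 0 were higher and 3 were lower, act-5 together with pho-1 (-2.03) and pept-1 (-1.07). All 4 sperm markers were lower, and no marker of neuron, oocyte, muscle or pharynx passed 2-fold. The part of tissue or embryo content in the differences of the 154 genes was not tested.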

How the data were processed

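Total RNA of 3 samples was hybridised to 1 Affymetrix array each, labelled from the 3' end per the labels' protocols. The deposited values are normalized intensities on a linear scale. RMA, MAS5 and Affymetrix Expression Console 1.1 are named, per the submitters' processing notes, while what each did, and in which order, is not given in the sources used here. Values ran from 9.08 to 31806, and median intensities were 101.8, 100.2 and 102.8 at 0 h, 4 h and 24 h. Precision is limited by the number of arrays.

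Of 22625 probe sets, 20766 were annotated to 1 gene, and 20701 of them were matched by gene ID to present gene names (WBcel235 assembly). A pseudocount of 32 was added before taking log2. A probe set entered if its mean reached the median over all probe sets (7.09, an intensity of 103.9), and the brightest represented its gene. Samples were grouped by time, and 24 h and 4 h were compared with 0 h and with each other without a test. The genes named were the 15 with the largest 24 h difference, the extremes of both steps, those at the threshold, the 5 brightest, neighbours and genes whose probe sets went opposite ways; others were named after their values were seen. The members and lists were chosen with earlier results of these data known. The computation was tested on simulated data. Protein and promoter comparisons were not made, as no sequences were used here. Python 3.11.15, numpy 2.4.6, pandas 2.3.3, scipy 1.17.1, statsmodels 0.14.6 and matplotlib 3.10.9 were used.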

Additional observations from a re-analysis of the deposited data

How the results depend on the processing

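No paired analysis was possible because each time has 1 array. Each count below applies the whole rule again under 1 changed choice, except that subtraction of the 1st percentile also changed the pseudocount, to 16. Of 96 values computed, 65 stayed within 1.5 times the reported count or within the 95% interval of the reported share or median. That interval is over genes and holds no spread between replicate arrays. Each setting chose genes higher at 24 h again, so a change of direction could not be checked this way. With a 1.5-fold threshold, 413 sequence-name genes (14.7%) were higher at 24 h, of which 158 were higher and 9 lower at 4 h and 152 higher from 4 h to 24 h. With a 3-fold threshold the counts were 52 (1.85%), 9, 0 and 11. Under a stricter filter, the 75th percentile, they were 78 (6.73%), 23, 0 and 18, since fewer genes were tested, and 72 were lower at 24 h, so that 52% of the calls of sequence-name genes were higher against 38.5%. Scaled on the hybridisation controls they were 611 (21.7%), 178, 2 and 112, with a median of 0.55 from 4 h to 24 h. A pseudocount of 100 gave 4.05% higher at 24 h, with 24 higher and 0 lower at 4 h, 26 higher from 4 h to 24 h and a 4 h median of 0.64, and a pseudocount of 1 gave 6.83%. The share was 2.65% without a filter, because more genes were tested, and 6.68% with the 1st percentile subtracted. Without _x_ and _s_ probe sets 0 genes were lower at 4 h. Steps of up to 5 genes put 12 genes in pairs in place of 2. Of the 154 genes, 112 were among those higher with a pseudocount of 100 and 113 without _x_ and _s_ probe sets. Quantile normalization shared 152 of the 154 genes, removal of a loess trend 147, median centring 149, the mean of all passing probe sets 147 and the dimmest passing probe set 143. The similarity limit for protein families was not run. Signal over background limits 12 genes, which were under the floor at 0 h.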
